A study of Mus musculus with 6 samples.

Results

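The genes described here make and break down extracellular nucleotides and adenosine, or sense adenosine, and were chosen by gene symbol from a list of 8. The platform annotation paired 5 of them with probe sets: Entpd1, Nt5e, Ada, Adora3 and Bst1, with 11 probe sets in all, out of 18193 genes and 45037 probe sets. The other 3 listed genes are not analysed here. Bone marrow cells of healthy C57BL/6 mice were transfected with a miR-142-3p mimic (3 arrays) or with a control oligonucleotide (3 arrays), with the reagent GeneSilencer. The protocol text shared by all samples writes a dose of 100 nM after the mimic and gives none separately for the control. Both groups received GM-CSF and IL-6 after 5 h and were cultured for 4 days, a culture meant to yield myeloid-derived suppressor cells (MDSCs), which are immature granulocytic and monocytic cells able to suppress T cells. The cultures are unsorted mixtures, and the sources used here give neither the age and number of the mice nor whether their marrow was pooled. Nothing in the labels ties the arrays of a group to separate cultures or animals, so SEs and p-values cover only the spread between these arrays, which may be technical.

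ATP that leaks from stressed or dying cells is an alarm signal. The surface enzyme CD39 (Entpd1) strips it to AMP, CD73 (Nt5e) turns AMP into adenosine, and adenosine quiets T cells and myeloid cells through its own receptors, a route by which MDSCs are known to suppress immunity. Adenosine deaminase (Ada) ends that signal by converting adenosine to inosine, while CD157 (Bst1) belongs to a neighbouring route that cleaves NAD at the cell surface.

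The oligonucleotide that separates the groups mimics the mature strand below, which is shown because its seed, the stretch that pairs with target transcripts, defines what the mimic can bind. RefSeq places it on the + strand at chr11:87756903-87756925 of GRCm38.p6, and the seed (bases 2 to 8) is in capitals. The hairpin it is cut from follows, with the 3p arm in capitals.
mmu-miR-142a-3p: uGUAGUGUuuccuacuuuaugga
Mir142 hairpin: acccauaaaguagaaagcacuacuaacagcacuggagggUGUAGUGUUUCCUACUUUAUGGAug
The partner strand from the other arm of the hairpin carries a different seed, again in capitals.
mmu-miR-142a-5p: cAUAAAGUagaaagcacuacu
Of 1679 mature mouse miRNAs in the RefSeq table, miR-142a-3p was the 1 with this seed. The transcripts of the 5 genes were not searched for matches to it here.

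All levels below are deposited log2 values. They start at -0.39, and 52.6% of all values lie below 1, so a gene near 1 is close to the floor of the arrays. Probe sets differ in how strongly they bind, so readings of different genes do not rank their transcripts. Fold changes are mimic against control with their SE from limma, fitted across all 18193 genes with 1 probe set each, the brightest. In that fit 2.76% of genes were called at an adjusted p under 0.05. Because the genes were proposed with results of this same comparison in view, their differences are given as a description, no test is drawn from them, and nothing is read from how many were called. The common leukocyte gene Ptprc (8.71 ± 0.13 with the mimic and 8.64 ± 0.10 in control; SD, n = 3) and the granulocyte calcium-binding protein gene S100a8 (11.96 ± 0.04 and 11.85 ± 0.02 in the same order) were bright in both groups. The monocyte and granulocyte integrin gene Itgam, part of the MDSC definition in mice, stood at 5.41 ± 0.15 with the mimic and 6.60 ± 0.33 in control and passed downward (adjusted p = 0.017 by limma). Medians of the 6 arrays ran from 0.84 to 0.92 and correlations between arrays from 0.982 to 0.996.

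With the mimic, the transcript of Nt5e, whose enzyme makes adenosine, was lower and that of Ada, whose enzyme removes it, was higher. Acpp, described below, encodes another enzyme that can make adenosine from AMP, and it was 1.48-fold higher. Nt5e was 2.39-fold lower and Ada 1.93-fold higher, while Entpd1, which acts upstream of Nt5e, differed by 1.16-fold. Bst1 was 1.42-fold lower, and the adenosine receptor gene Adora3 lay near the floor in both groups. Mimic and control arrays did not overlap in 4 of the 5 genes, in Entpd1 by only 0.01, and in 22.2% of all genes. Of the 5 genes 1 was called higher (Ada), 2 lower (Nt5e and Bst1) and 2 were not called. The background was 1.17% of all genes called higher and 1.59% called lower. The median log2 fold change of the 5 was -0.03, and that of all genes was 0.009.

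**Figure D1:**
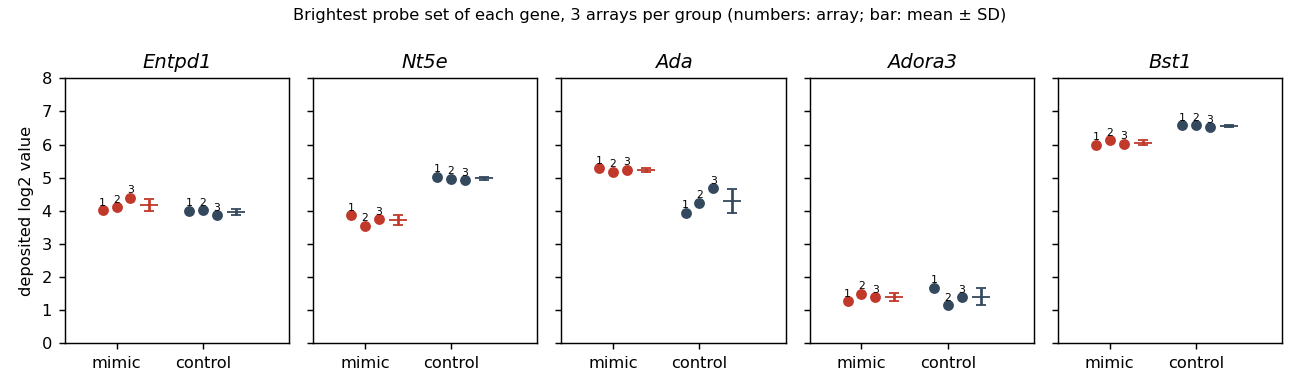
Deposited log2 value (vertical axis) of the brightest probe set of each gene in the mimic arrays (left, red) and the control arrays (right, blue), with array numbers above the points and the mean ± SD beside them. Nt5e and Bst1 lie lower and Ada higher in all 3 mimic arrays, Entpd1 lies close to 4 in both groups, and Adora3 stays below 2 on every array.

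Entpd1 (Entrez gene 12495) encodes CD39, the membrane enzyme that removes phosphates from extracellular ATP and ADP. Its brightest probe set read 4.02, 4.11 and 4.39 in mimic arrays 1, 2 and 3, against 4.0, 4.02 and 3.86 in control arrays 1, 2 and 3. The groups came within 0.01 of each other without overlapping, and mimic array 3 was the highest of the 6. The log2 fold change was 0.21 ± 0.12 and was not called. Among all genes, 28.5% had a larger change. Without mimic array 3 it was 0.11, and without mimic array 1 it was 0.29. The dimmer probe sets of Entpd1 pointed in different directions, with log2 fold changes of -0.25 ± 0.36 and 0.14 ± 0.09. The first of these was the most uneven within its groups of all 11, ranging over 0.85 to 2.04 with the mimic and over 1.15 to 2.24 in control.

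Nt5e (Entrez gene 23959) encodes CD73, the membrane-anchored 5′-nucleotidase that releases adenosine from AMP. Its brightest probe set read 3.86, 3.55 and 3.75 in mimic arrays 1, 2 and 3, against 5.03, 4.97 and 4.92 in control arrays 1, 2 and 3. The groups were 1.06 apart at their closest, a gap wider than the range within either group. Nt5e averaged 3.72 ± 0.15 with the mimic and 4.97 ± 0.06 in control (SD, n = 3), a log2 fold change of -1.25 ± 0.11, and only 0.693% of all genes changed by more. It was called lower. Over fits that left out 1 array the log2 fold change ran from -1.32 to -1.17. The call was lost without mimic array 1 (-1.32), mimic array 3 (-1.27) or control array 2 (-1.26), fits in which limma called 0 of all genes (2343, 2746 and 2564 genes at an unadjusted p under 0.05).

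The 3 probe sets of Nt5e differed in how much they moved. The middle one read 2.44, 2.24 and 2.44 in mimic arrays 1, 2 and 3, against 2.99, 2.84 and 2.68 in control arrays 1, 2 and 3. These groups did not overlap either, but the difference was smaller, with a log2 fold change of -0.46 ± 0.12. The dimmest lay at 0.92 ± 0.12 with the mimic and 0.93 ± 0.11 in control, at the floor, with a log2 fold change of -0.02. Averaging the 3 probe sets gave a log2 fold change of -0.58. In a fit of all 45037 probe sets, of which 0.897% were called, the brightest Nt5e probe set was the 1 called among the 11. Mimic and control arrays did not overlap in 6 of the 11 and in 17.5% of all probe sets.

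**Figure D2:**
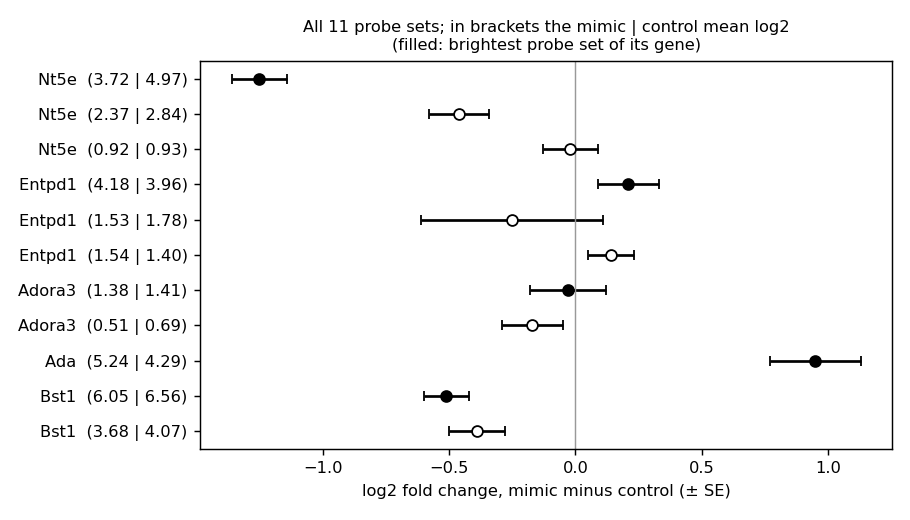
Log2 fold change, mimic minus control (horizontal axis), with its SE from the fit of all probe sets, for each of the 11 probe sets. Filled points are the brightest probe set of each gene, and brackets give the mean log2 value with the mimic and then in control. The point of the brightest Nt5e probe set, at -1.25, lies apart from those of its dimmer probe sets at -0.46 and -0.02, whereas the Bst1 points lie close together at -0.51 and -0.39.

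Ada (Entrez gene 11486) encodes adenosine deaminase, which converts adenosine and deoxyadenosine to inosine and deoxyinosine and whose loss in people and mice causes immune deficiency. The 1 probe set listed for it read 5.28, 5.18 and 5.24 in mimic arrays 1, 2 and 3, against 3.94, 4.24 and 4.68 in control arrays 1, 2 and 3. The mimic arrays lay together, whereas the control arrays were spread over a wider range, and the closest pair of the groups was 0.50 apart. Ada averaged 5.24 ± 0.05 with the mimic and 4.29 ± 0.37 in control (SD, n = 3). The log2 fold change was 0.95 ± 0.18, a size exceeded by 1.45% of all genes. Ada was called higher with all 6 arrays, and among the fits with 1 array left out it stayed called in the fit without control array 3 (1.15). It was not called without control array 1 (0.77), control array 2 (0.92), mimic array 1 (0.92), mimic array 2 (0.98) or mimic array 3 (0.94), nor in the fit of all probe sets.

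Adora3 (Entrez gene 11542) encodes the A3 adenosine receptor, which couples to inhibitory G proteins and in rodents is best known on mast cells. Its brighter probe set read 1.26, 1.49 and 1.39 in mimic arrays 1, 2 and 3, against 1.67, 1.15 and 1.39 in control arrays 1, 2 and 3. The groups overlapped, and all 6 readings were close to the floor. The log2 fold change was -0.03 ± 0.14, and its sign turned without mimic array 1 (0.04) or control array 1 (0.11) and with array weights (0.06). The second probe set stood at 0.51 ± 0.14 with the mimic and 0.69 ± 0.14 in control. In RefSeq the locus of Adora3 overlaps the protein-coding gene Tmigd3, so signal from the 2 genes may not be separable by these probe sets. Mast cell and basophil markers were present in these cultures: of 10 measured, 2 passed the test upward, Cpa3 and Fcer1a, and 0 downward. Their summed level, the log2 of the sum of the linear values, was 9.62 to 9.76 with the mimic and 8.46 to 9.28 in control. The brightest marker, which weighs most in that sum, was Mcpt8, at 8.86 ± 0.14 with the mimic and 8.20 ± 0.43 in control. Mcpt8 did not pass (limma, adjusted p = 0.15). The connective tissue mast cell protease genes Mcpt4, Tpsb2 and Cma1 had means under 2.

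Bst1 (Entrez gene 12182) encodes CD157, a glycolipid-anchored surface protein of myeloid and marrow stromal cells and of early B cells that can convert NAD to cyclic ADP-ribose. Its brighter probe set read 6.00, 6.14 and 6.03 in mimic arrays 1, 2 and 3, against 6.58, 6.59 and 6.52 in control arrays 1, 2 and 3. Both groups were tight and lay 0.38 apart at their closest. The second probe set read 3.66, 3.57 and 3.81 in mimic arrays 1, 2 and 3, against 4.18, 4.12 and 3.91 in control arrays 1, 2 and 3, again without overlap. The log2 fold changes of the probe sets were -0.51 ± 0.09 and -0.39 ± 0.11. Bst1 was called lower with all 6 arrays. The call was lost whichever 1 of the 6 arrays was left out, with log2 fold changes of -0.55 to -0.48, and also in the fit of all probe sets (-0.51). A change larger than that of Bst1 was seen in 6.43% of all genes.

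Nt5e and Ada ran in opposite order over the control arrays and in the same order over the mimic arrays. Control array 1 had the highest Nt5e and the lowest Ada, and control array 3 the lowest Nt5e and the highest Ada. The steps were small for Nt5e, 0.06, 0.00 and -0.06 relative to the control mean in control arrays 1, 2 and 3, and larger for Ada, at -0.35, -0.05 and 0.40. Mimic arrays 1, 2 and 3 stood at -1.12, -1.42 and -1.22 for Nt5e and at 0.99, 0.89 and 0.96 for Ada on the same scale. Every mimic array thus lay outside the control range for both genes.

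Nt5e and Ada varied most over the 6 arrays among those of the 5 whose mean log2 value reached 3 (SD 0.69 and 0.57). The genes closest to each were sought by the root mean square difference of log2 values, each centred on its own mean over the 6 arrays, among 7661 other genes with a mean of 3 or more. For Nt5e they were Ly6i, of the Ly6 family of surface antigens (0.0962), Fscn1, which encodes the actin-bundling protein fascin (0.122), and Mgl2, a C-type lectin gene of macrophages and dendritic cells (0.130). Their log2 fold changes were -1.26, -1.31 and -1.36. For Ada they were the autophagy gene Atg12 (0.0709), the neutrophil elastase gene Elane (0.0807) and Ms4a3, a tetraspan gene of granulocyte precursors (0.0817), with log2 fold changes of 0.92, 0.98 and 0.86. Elane read 10.40, 10.36 and 10.34 in mimic arrays 1, 2 and 3, against 9.0, 9.49 and 9.68 in control arrays 1, 2 and 3, which is the order of Ada within the controls. With 6 arrays in 2 groups, such likeness rests largely on the difference between the groups.

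**Figure D3:**
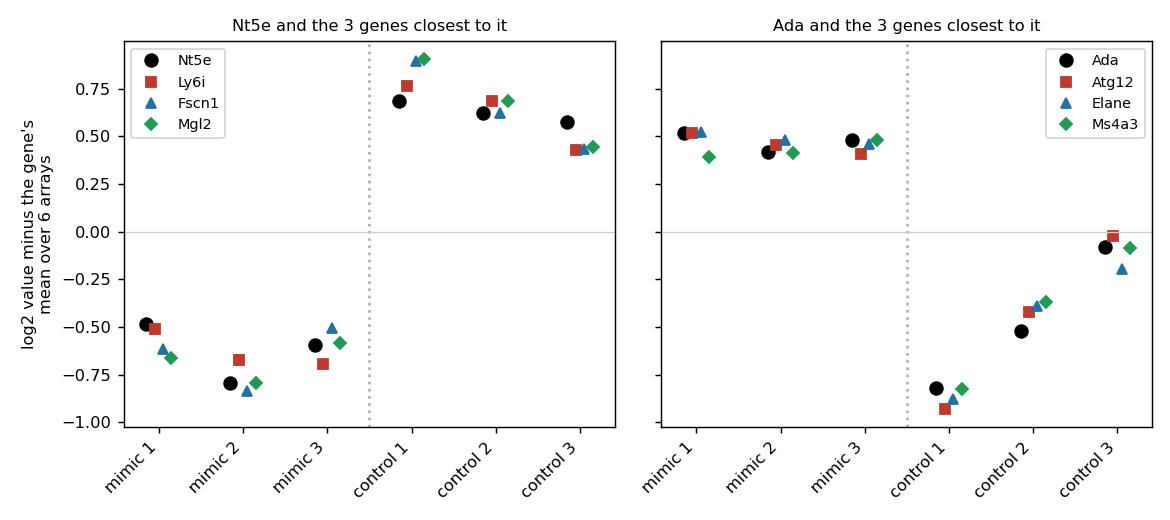
Log2 value minus the gene's own mean over the 6 arrays (vertical axis) in mimic arrays (left of the dotted line) and control arrays (right), for Nt5e and for Ada with the 3 genes closest to each. In the Ada panel all 4 genes are lowest in control array 1 and highest among the controls in control array 3.

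Some marker genes of dendritic cells, granulocytes and macrophages also differed between the groups. In such mixed cultures, fewer cells of a type and less RNA per cell cannot be told apart. Of 8 dendritic cell markers 5 passed downward (Ccl17, Ccl22, Itgax, Ccr7 and H2-Ab1) and 0 upward. The summed level of the list was 6.89 to 7.05 with the mimic and 8.71 to 10.17 in control. Flt3 did not pass (limma, log2 fold change -0.44 ± 0.12, adjusted p = 0.101), and neither did Zbtb46 and Cd209a. Zbtb46 and Cd209a of that list had means under 2. Of 11 neutrophil precursor and neutrophil markers 2 passed upward (Elane and Ctsg) and 1 downward (Mmp8), with summed levels of 14.33 to 14.35 with the mimic and 13.83 to 14.17 in control. Of 6 macrophage markers 1 passed upward (Fcgr1) and 1 downward (Csf1r), with sums of 10.29 to 10.36 and 10.39 to 10.43 in the same order. The part of these cells in the levels of Nt5e, Ada and Bst1 was not tested.

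Lymphoid and stromal cells, which also carry CD73 or CD157, were examined in the same way. Of 7 measured B cell markers 1 passed downward, Ms4a1, and the defining genes Vpreb1, Igll1, Pax5 and Ebf1 had means under 2. The B cell receptor component genes were above the floor, with Cd79b at 5.34 ± 0.17 with the mimic and 5.75 ± 0.47 in control and Cd79a at 3.88 ± 0.14 and 4.40 ± 0.24 in the same order (SD, n = 3). The summed level was 6.03 to 6.27 with the mimic and 6.37 to 6.92 in control. Of 6 T and NK cell markers 1 passed downward, Thy1, while Cd3g, Cd3d, Cd2 and Ncr1 had means under 2. That list summed to 5.04 to 5.08 with the mimic and 6.62 to 7.46 in control. Thy1, a surface glycoprotein gene not specific to T cells, made up most of that difference, at 4.43 ± 0.05 with the mimic and 6.79 ± 0.50 in control, while Cd3e stood at 2.20 ± 0.14 and 2.28 ± 0.14 in the same order. Of 6 stromal markers 1 passed downward, the collagen gene Col1a2, and Pdgfrb and Lepr had means under 2, with sums of 4.86 to 5.24 with the mimic and 5.33 to 5.80 in control. Eosinophil markers, of which 1 of 6 passed upward (Prg3), summed to 7.61 to 7.67 with the mimic and 5.94 to 7.23 in control. The brightest of them, Prg2 and Epx, did not pass (limma, adjusted p = 0.18 and 0.217), and Ccr3 and Il5ra had means under 2. The part of the lymphoid, stromal and eosinophil cells was likewise not tested.

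The rest of the nucleotide and adenosine pathway was examined through 93 further genes, of which 83 were measured. With limma, 2 passed upward, 3 passed downward, of which 1 (Crem) lay near the floor, and 78 did not pass, so that 6.02% were called beside 2.76% of all genes. The median log2 fold change was -0.02, against 0.009 over all genes. At an unadjusted p under 0.05 there were 11 higher and 15 lower, beside 1453 higher and 1648 lower of all 18193 genes. The list was put together with earlier results of these arrays known.

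Among enzymes that split nucleotides, 1 surface phosphatase and 1 cytosolic nucleotidase rose. Acpp, now also named Acp3, encodes an acid phosphatase that can make adenosine from AMP outside sensory neurons in mice. It read 6.25, 6.34 and 6.23 in mimic arrays 1, 2 and 3, against 5.69, 5.69 and 5.76 in control arrays 1, 2 and 3. Its groups did not overlap, and limma gave a log2 fold change of 0.56 ± 0.09 (adjusted p = 0.0203). Both dimmer probe sets pointed the same way, by 1.07 and 1.14 on the log2 scale. Nt5c3 encodes a cytosolic nucleotidase with a preference for pyrimidine monophosphates. It read 7.13, 7.07 and 7.18 in mimic arrays 1, 2 and 3, against 5.59, 5.78 and 6.03 in control arrays 1, 2 and 3, and was 2.50-fold higher (limma, log2 fold change 1.32 ± 0.12, adjusted p = 0.00673). Both genes were thus raised on every mimic array. The second probe set of Nt5c3 lay at the floor, at 0.36 ± 0.22 with the mimic and 0.24 ± 0.00 in control, and with the 2 probe sets averaged the log2 fold change of the gene was 0.72. Acpp did not pass when mimic array 1, 2 or 3 or control array 2 was left out (0.53 to 0.58), and Nt5c3 did not pass without mimic array 1, mimic array 3 or control array 2 (1.30 to 1.32).

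Of the other ectonucleotidases and phosphatases 7 were measured and only Acpp passed. Enpp4 did not pass, at 3.16 ± 0.15 with the mimic and 1.66 ± 0.92 in control (limma, log2 fold change 1.51 ± 0.39, adjusted p = 0.0996). Of the cytosolic nucleotidases and AMP deaminases 8 were measured and only Nt5c3 passed. None of 3 intracellular Entpd enzymes passed with limma (1 higher at an unadjusted p under 0.05), and Entpd6 stood at 4.48 ± 0.11 with the mimic and 4.66 ± 0.08 in control (SD, n = 3). Downstream of Ada, the purine nucleoside phosphorylase gene Pnp, which splits inosine, stood at 9.50 ± 0.07 with the mimic and 8.86 ± 0.30 in control and missed the threshold, with a log2 fold change of 0.64 ± 0.15 (limma, adjusted p = 0.0744). It passed when only genes averaging 3 or more, or 5 or more, were tested (adjusted p = 0.0403 and 0.0271), with a trended robust variance (0.0227) and with array weights (0.0346), and over all alternatives its adjusted p ran up to 0.229. None of 7 genes of adenosine and inosine metabolism passed (2 higher and 2 lower at an unadjusted p under 0.05), and none of 5 adenosine transporters did (0 at an unadjusted p under 0.05). Among the transporters Slc29a3, an intracellular nucleoside transporter, stood at 5.54 ± 0.11 with the mimic and 5.52 ± 0.15 in control.

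Of the receptors for extracellular nucleotides, 1 passed the test. P2ry6, the receptor for UDP that is known to prompt phagocytosis in microglia, read 2.85, 2.88 and 2.46 in mimic arrays 1, 2 and 3, against 5.29, 4.64 and 4.44 in control arrays 1, 2 and 3. It was lower by a factor of 4.17, with a log2 fold change of -2.06 ± 0.22 (limma, adjusted p = 0.00779), a larger difference than that of any of the 5 enzymes and receptors above. It did not pass without mimic array 1 (-2.12), mimic array 3 (-1.93) or control array 2 (-2.13). Of 8 measured P2Y receptor genes it was the 1 that passed (0 higher and 3 lower, P2ry6 included, at an unadjusted p under 0.05). None of 7 P2X receptor genes passed with limma (0 higher and 1 lower at an unadjusted p under 0.05). The 1 lower was P2rx5, at 1.98 ± 0.14 with the mimic and 3.61 ± 0.86 in control (limma, log2 fold change -1.63 ± 0.37, adjusted p = 0.0678). The ATP-gated channel gene P2rx4 stood at 6.35 ± 0.05 with the mimic and 6.23 ± 0.10 in control. Of 4 genes for nucleotide release none passed (0 at an unadjusted p under 0.05), with the channel gene Panx1 at 4.52 ± 0.06 and 4.54 ± 0.07 in the same order.

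**Figure D4:**
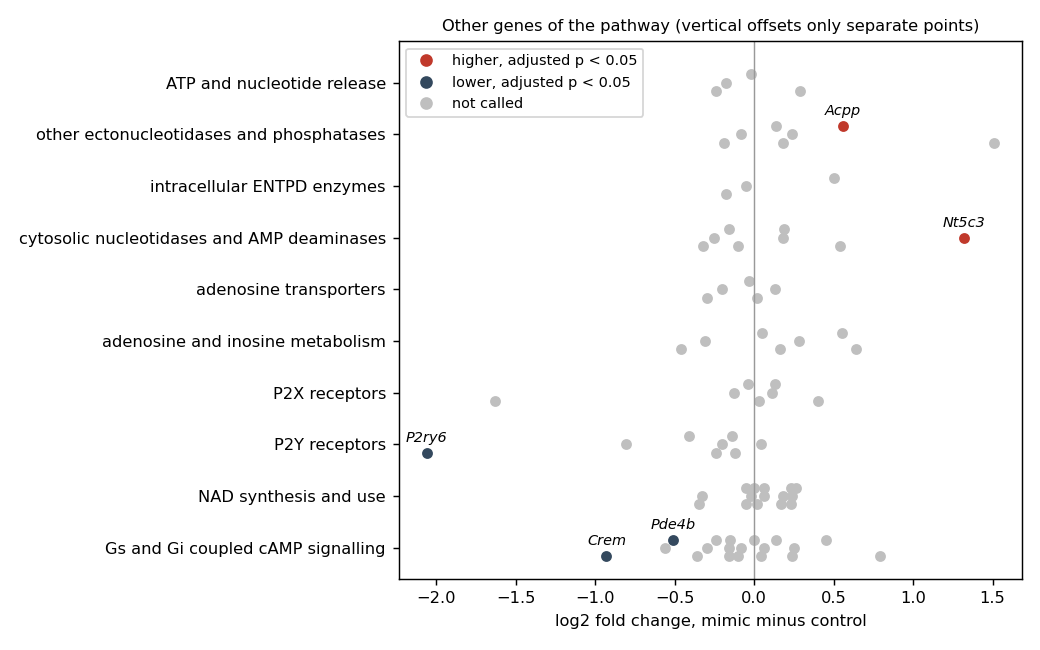
Log2 fold change, mimic minus control (horizontal axis), of the 83 other genes of the pathway by role, 1 point a gene. Red points passed upward and dark blue points downward at an adjusted p under 0.05, grey points did not pass, and P2ry6 at -2.06 lies farthest from 0.

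Adenosine receptors act by raising or lowering cyclic AMP, and of 19 genes of that signalling 2 passed the test downward, 1 of them near the floor. Pde4b encodes a phosphodiesterase that breaks down cyclic AMP in leukocytes. It read 4.45, 4.45 and 4.56 in mimic arrays 1, 2 and 3, against 4.98, 4.88 and 5.13 in control arrays 1, 2 and 3, a log2 fold change of -0.51 ± 0.10 (limma, adjusted p = 0.0428). It did not pass when any 1 of the 6 arrays was left out (-0.57 to -0.44) or in the fit of all probe sets (adjusted p = 0.0733, and up to 0.187 over the alternatives run). Crem, which encodes a transcription factor that responds to cyclic AMP, was dim at 0.85 ± 0.10 with the mimic and 1.78 ± 0.12 in control (limma, log2 fold change -0.93 ± 0.10, adjusted p = 0.00862). Its 3 other probe sets lay at the floor, with log2 fold changes of 0.02, 0.03 and 0.10. At such readings the size of the difference is uncertain. With its probe sets averaged, Crem had a log2 fold change of -0.19 and did not pass (adjusted p = 0.257, the highest over the alternatives run), and neither did it pass when mimic array 1, 2 or 3 or control array 2 was left out (-0.97 to -0.87).

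Around Bst1, none of 15 measured genes of NAD synthesis and use passed with limma (1 higher and 2 lower at an unadjusted p under 0.05). The NAD kinase gene Nadk stood at 7.76 ± 0.03 with the mimic and 8.08 ± 0.14 in control, with a log2 fold change of -0.33 ± 0.10 (limma, adjusted p = 0.146). Nadk passed downward when only genes averaging 5 or more were tested (adjusted p = 0.0476) and with array weights (0.0398), and over all alternatives its adjusted p ran up to 0.326.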

How the data were processed

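Each of the 6 Affymetrix MOE430 2.0 arrays gave 1 deposited log2 value per probe set. Per the submitters' processing notes, RMA and affy were among the authors' tools. Their versions, the centring, the floor and any filter are not stated there. The log2 base was inferred from the values, since the highest, 12.3, is above the ceiling of 11.1 that natural logs of scanner intensities would have. No scanner files were used, and the number of arrays limits the precision.

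Of 45101 probe sets 64 are controls, 34945 have 1 gene symbol, 932 several and 9160 none listed. Symbols were updated through RefSeq gene identifiers for 34741. Each gene was represented by its brightest probe set, and 9010 of 18193 genes had several. Mimic and control were set against each other in limma 3.58.1 under R 4.3.3, by two-sided moderated tests from lmFit and eBayes without covariates, with Benjamini-Hochberg adjustment over all genes and a threshold of 0.05. The method was also run on simulated data with independent noise for each gene. That noise holds no differences shared by the genes of an array, so the simulation cannot vouch for the calls made here.

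The genes described, the pathway and marker lists and the naming rule were chosen with earlier results of these data known. The rule names the 5 genes with every probe set, pathway genes that passed, from each role list in which none passed the gene whose probe set read highest, and the 3 genes closest to Nt5e and to Ada. Enpp4 and P2rx5, with large differences that did not pass, are named outside the rule. Alternatives were the replicate number as a block, leave-one-out fits, minimum levels, other uses of probe sets, variance models, weights and normalisations.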

Additional observations from a re-analysis of the deposited data

How the results depend on the processing

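Nt5e, Ada and Bst1 kept their direction in every alternative run. The log2 fold change ran from -1.32 to -0.58 for Nt5e, from 0.77 to 1.15 for Ada and from -0.55 to -0.45 for Bst1. Their calls depended on the settings: of the 5 genes 1 was called higher and 2 lower as reported, against 0 and 1 with the replicate block, 0 and 1 when all probe sets were tested, and 0 and 1 when only genes averaging 5 or more were tested, where Bst1 is the only one of the 5 left to test. With 1 array left out, 0 to 1 were called higher and 0 to 1 lower, while 1 and 2 had an unadjusted p under 0.05 in each of these fits. Of all 18193 genes, 1085 to 1454 were higher and 1258 to 1632 lower at that unadjusted threshold in the same fits. These fits share arrays, and the 5 genes were proposed with this comparison in view. Their counts are thus a description and not a test. Over all genes, leaving out 1 array gave 0 to 165 higher and 0 to 248 lower, and in the other pathway genes 0 to 3 higher and 0 to 3 lower. Without mimic array 1, mimic array 3 or control array 2, limma called 0 genes (2343, 2746 and 2564 at an unadjusted p under 0.05).

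All genes called higher and lower numbered 213 and 290 as reported, 126 and 188 with the replicate block, and 456 and 591 with array weights. A trended robust variance gave 320 higher and 429 lower. The split of calls was 210 higher and 349 lower with arrays centred on their medians, and 322 higher and 290 lower after quantile normalisation. Among the other pathway genes, 2 called higher as reported became 1 with the block, 5 when only genes averaging 3 or more were tested, 5 at an average of 5 or more, 5 with the trended robust variance, 7 with array weights and 4 after quantile normalisation. The 3 called lower became 4 with the block, 5 with the trended robust variance, 8 with array weights and 5 with median centring. They fell to 2 when only genes averaging 3 or more were tested and to 2 with probe sets averaged. The number was also 2 when all probe sets were tested and 2 after quantile normalisation. The cause of these shifts was not tested.

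The sign of Adora3 turned without mimic array 1 (0.04), without control array 1 (0.11) and with array weights (0.06), within -0.15 to 0.11 over the fits with 1 array left out. Panx1 turned without mimic array 3 (0.02), without control array 1 (0.02), with array weights (0.03) and after quantile normalisation (0.04), and Slc29a3 turned without mimic array 3 (-0.04) and control array 3 (-0.05), within -0.05 to 0.10 over those fits. The labels do not say whether same-numbered arrays are pairs. Deviations from the group means of same-numbered arrays correlated at -0.13, 0.34 and -0.30 across genes, which are not independent replicates. Those of differently numbered arrays correlated at -0.39 to 0.4. With 3 arrays a group, such correlations cannot decide whether the numbers pair the arrays. With the block, Nt5e, Nt5c3, P2ry6 and Crem were still called, and Ada, Bst1, Acpp and Pde4b were not.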
